A study of Saccharomyces cerevisiae with 16 samples.

Results

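The 7 open reading frame (ORF) features of the pyruvate decarboxylase and alcohol dehydrogenase genes of budding yeast are described here: PDC1 (YLR044C), PDC5 (YLR134W), PDC6 (YGR087C), ADH1 (YOL086C), ADH2 (YMR303C), ADH3 (YMR083W) and ADH5 (YBR145W). They were picked by systematic name among 6203 ORF names on the array layout, and all 7 were among the 12380 features tested. Chromatin immunoprecipitation on two-colour arrays (ChIP-chip) compared DNA bound by a MYC-tagged protein (the IP) with total genomic DNA (the input) on 16 arrays spotted with PCR products of ORFs and intergenic regions, in a study of where replication forks pause. All cells were haploid W303a yeast growing asynchronously in the rich medium YEPD at an optical density of 0.25. The tagged protein was either Pol2-13MYC, the catalytic subunit of DNA polymerase epsilon (not RNA polymerase II), or Rrm3-13MYC, a helicase that helps forks past tightly bound proteins.

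The groups were the Pol2 IP in wild type (4 arrays, numbered 039, 086, 136 and 230), the Pol2 IP on arrays labelled rrm3 delete (040, 137, 182, 183, 239 and 240) and the Rrm3 IP (031, 041, 088, 184 and 185). Array 231, whose labels contradict each other on the deletion, was left out of all comparisons. A value is log2 of IP over input, centred so that 0 is the median of its array. It is relative to the other features of that array, and with no mock or untagged IP used here it was not set against a background of the IP itself.

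The fermentative pathway works in 2 steps: pyruvate decarboxylase turns pyruvate into acetaldehyde and carbon dioxide, and alcohol dehydrogenase reduces acetaldehyde to ethanol. During growth on glucose, as in YEPD, PDC1 and ADH1 are among the most strongly transcribed yeast genes. PDC5 is a second decarboxylase gene, induced when PDC1 is missing, and PDC6 is expressed weakly. ADH2 encodes the enzyme that oxidises ethanol and is repressed by glucose, ADH3 encodes a mitochondrial enzyme, and ADH5 a minor isozyme.

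Several arrays stood apart. Array 136 is labelled with its IP in Cy5. Read that way, its correlation across features with the remaining arrays was -0.54 to -0.15, where other pairs had -0.13 to 0.74, and the deposited table had turned it. Its direction is therefore not settled. The deposited direction was used, also in counts of arrays above or below 0. As labelled, the array's own values and differences change sign. The values of the 7 genes with array 136 as labelled are given with the tests. A quality flag removed 49.7% of spots on array 136 and 54.0% on array 182, against 1.22% to 17.0% elsewhere, and 6273 to 12905 features were measured per array. The RRM3 spot checks the deletion: on arrays labelled rrm3 delete its input signal had a median percentile among spots of 5.10 and a lowest of 1.59, against 32.7 to 90.4 in wild type, but array 239 stood at 50.03, which goes against its label. Arrays 031 and 041 had another spot layout, and the extraction text of array 086 also names an antibody to H3K36me2.

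PDC1 had the highest fitted value of the 7 genes in each of the 3 groups, and ADH1 was above the array median on every array that measured it. In wild type PDC1 had a log2 ratio of 1.48 on array 039, 0.84 on 086, 1.70 on 136 and 1.07 on 230. On arrays labelled rrm3 delete its lowest, median and highest values were 0.75, 1.40 and 1.56. In the Rrm3 IP they were 1.94 on array 041, 1.69 on 031, 1.30 on 184 and 0.94 on 185, with no value on 088. All 14 measured values were above 0, and the 3 groups overlapped throughout. Among the ORFs of its array PDC1 stood between the 94.8th and the 99.97th percentile.

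**Figure D1:**
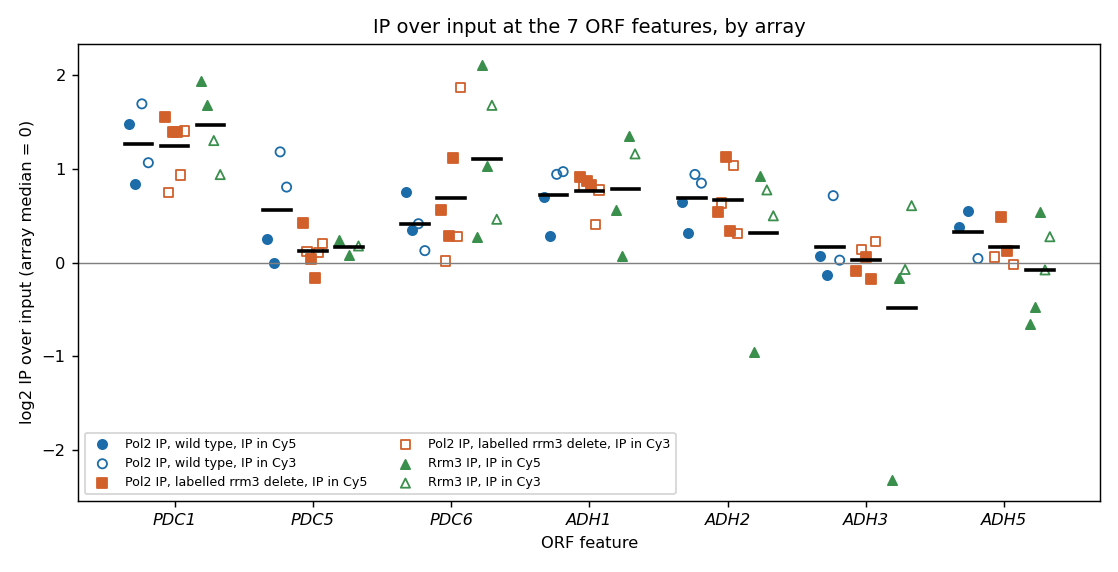
Log2 IP over input (vertical axis, array median at 0) of the 7 ORF features on each of the 15 grouped arrays. Filled symbols are arrays with the IP in Cy5, open symbols dye-swapped arrays and array 136, and bars are plain means of each group; PDC1 lies between 0.75 and 1.94 on all 14 arrays that measured it, while ADH3 spreads around 0.

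ADH1 gave 0.70, 0.29, 0.94 and 0.97 on wild-type arrays 039, 086, 136 and 230. On arrays labelled rrm3 delete 5 of 6 values lay close together, between 0.78 and 0.91, and array 240 was lower at 0.40. In the Rrm3 IP the values spread from 0.07 on array 031 through 0.56 on 041 and 1.16 on 185 to 1.36 on 088. ADH1 was thus above 0 on 14 of 14 arrays, with the widest scatter in the Rrm3 IP.

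In the fit to all features (limma, Benjamini-Hochberg adjusted p), 2 of the 7 genes passed as higher than the array median in wild type, where 0.937% of all features did, and 0 as lower, where 2.37% did. PDC1 was at 1.27 ± 0.18 (SE, n = 4; 2.41-fold; adjusted p = 0.00131) and ADH1 at 0.73 ± 0.19 (n = 4; 1.65-fold; adjusted p = 0.0458). ADH2 at 0.69 ± 0.24 and PDC5 at 0.56 ± 0.17 did not pass (adjusted p = 0.134 and 0.0791). At the same value ADH2 passed when array 031 of the Rrm3 IP left the fit (adjusted p = 0.0133). PDC6 at 0.41 ± 0.29, ADH5 at 0.31 ± 0.23 and ADH3 at 0.17 ± 0.28 did not either. With array 136 as labelled neither call was made, PDC1 being at 0.37 (adjusted p = 0.854) and ADH1 at 0.32 (0.798). Without array 136, PDC1 passed at 1.06 (0.0109) and ADH1 did not at 0.68 (0.162), and the ADH1 call was lost on leaving out any of 11 of the 15 arrays. With array 136 as labelled the others were lower too, ADH2 at 0.32, PDC6 at 0.20, PDC5 at 0.05 and ADH3 at -0.01, while ADH5 has no value on that array.

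On arrays labelled rrm3 delete, 3 of the 7 genes were called higher, against 9.38% of all features, and 0 lower, against 6.91%. PDC1 was at 1.24 ± 0.15 (SE, n = 6; 2.37-fold; adjusted p = 3.69e-05), ADH1 at 0.77 ± 0.15 (n = 6; 1.70-fold; adjusted p = 0.00269) and ADH2 at 0.66 ± 0.19 (n = 6; 1.58-fold; adjusted p = 0.0273). The ADH2 call was lost without array 040, 137, 239 or 240, the adjusted p then lying between 0.0535 and 0.116. It was also lost with array 136 as labelled (adjusted p = 0.0675). The highest ADH2 values, 1.12 on array 137 and 1.04 on 240, came from faint spots, with input at the 6.65th and 8.13th percentile. PDC6 at 0.69 ± 0.24, on a spot recorded as a failed PCR product, had an adjusted p of 0.0603. It was at 0.42 without array 182 (adjusted p = 0.236) and passed without array 183 (0.83, adjusted p = 0.0483), and it also passed when array 031 or 041 of the Rrm3 IP left the fit (0.0248 and 0.0499). PDC5 at 0.12 ± 0.13, ADH5 at 0.16 ± 0.20 and ADH3 at 0.10 ± 0.25 lay near the array median. Without array 239, whose RRM3 signal goes against its label, PDC1 was at 1.24 and ADH1 at 0.74, both passing.

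In the Rrm3 IP, 3 of the 7 genes were called higher, against 11.0% of all features, and 0 lower, against 12.7%. PDC1 was at 1.47 ± 0.18 (SE, n = 4; 2.77-fold; adjusted p = 0.000251), PDC6 at 1.11 ± 0.26 (n = 5; 2.15-fold; adjusted p = 0.00857) and ADH1 at 0.83 ± 0.20 (n = 4; 1.78-fold; adjusted p = 0.00862). The PDC6 call was lost without array 184 (adjusted p = 0.0535) and the ADH1 call without array 185 (0.0556). ADH2 at 0.31 ± 0.24, PDC5 at 0.22 ± 0.19 (n = 3), ADH5 at -0.09 ± 0.18 and ADH3 at -0.49 ± 0.28 did not pass. Array 031 weighed on these: without it ADH2 was at 0.72 and passed (adjusted p = 0.0111), and ADH3 was at 0.07.

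The order of the fitted values was PDC1, ADH1, ADH2, PDC5, PDC6, ADH5 and ADH3 in wild type. Only the steps from PDC1 to ADH1 and from ADH5 to ADH3 were larger than 1 SD of the difference within arrays, and the second hardly so (0.33 ± 0.33, n = 3). On arrays labelled rrm3 delete the order was PDC1, ADH1, PDC6, ADH2, ADH5, PDC5 and ADH3. There PDC1 exceeded ADH1 by 0.47 ± 0.27 (SD, higher on 5 of 6 arrays) and ADH2 exceeded ADH5 by 0.62 ± 0.35 (4 of 4 arrays), and the other neighbours in the order differed by less than 1 SD. In the Rrm3 IP the order was PDC1, PDC6, ADH1, ADH2, PDC5, ADH5 and ADH3, and of its neighbours only ADH1 and ADH2 differed by more than 1 SD.

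The contrast of the strongly transcribed gene of each family with its relatives was made within arrays, by an exact two-sided permutation test that exchanged the 2 genes of a pair on each array, with p adjusted over the 5 pairs. PDC1 exceeded PDC5 on 13 of 13 arrays, by 1.05 ± 0.45 (SD; 2.07-fold; adjusted p = 0.00122). The difference lay between 0.26 and 1.70, and averaged 0.71 in wild type, 1.12 on arrays labelled rrm3 delete and 1.36 in the Rrm3 IP. It moved with the dyes: it averaged 1.35 on the 7 arrays with the IP in Cy5 and 0.70 on the 6 others. With array 136 in its deposited direction it was above 0 on all of both. On array 136 it was 0.51 in that direction and turned below 0 with the array as labelled. The pair passed under all alternatives (permutation, adjusted p 0.0391 at most). The part of the dyes in the difference between groups was not tested.

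PDC5 itself was near the array median on most arrays and higher on 2 of them. In wild type it was 0.26 on array 039, 0.00 on 086, 1.18 on 136 and 0.81 on 230, both high arrays being those read with the IP in Cy3, array 136 by the deposited direction. On arrays labelled rrm3 delete it ran from -0.16 to 0.43, with a median of 0.11, and in the Rrm3 IP it was 0.24, 0.08 and 0.18 on arrays 041, 031 and 185. The 2 high wild-type values lay above all values of the other groups, while the 2 low ones lay within them.

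PDC6 has to be read with a caution about its spot, which the scanner files record as a failed PCR product on all 15 grouped arrays. Its input signal lay between the 1.54th and the 28.3rd percentile of spots (median 13.4), where the medians of the other 6 genes lay between 31.6 and 67.0. With this spot, PDC6 was above 0 on 15 of 15 arrays but varied widely. It ran from 0.13 to 0.75 in wild type, from 0.02 to 1.87 (array 182) on arrays labelled rrm3 delete, and from 0.27 to 2.11 (array 031) in the Rrm3 IP. PDC1 exceeded it on 11 of 14 arrays, by 0.58 ± 0.65 (SD; exact permutation, adjusted p = 0.00885), the exceptions being arrays 182, 031 and 184. That call was lost with array 136 as labelled (0.40, adjusted p = 0.0830).

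ADH1 exceeded ADH3, the gene of the mitochondrial enzyme, on 12 of 12 arrays, by 0.86 ± 0.61 (SD; 1.82-fold; exact permutation, adjusted p = 0.00122). It exceeded ADH5 on 10 of 11 arrays, by 0.61 ± 0.39 (SD; 1.53-fold; adjusted p = 0.00326 by the same permutation). The ADH1 to ADH3 difference averaged 1.11 on the 7 arrays with the IP in Cy5 and 0.52 on the 5 others. That to ADH5 averaged 0.53 on 7 and 0.75 on 4 arrays. On array 136 the ADH1 to ADH3 difference was 0.23 in the deposited direction and turned below 0 with the array as labelled. The ADH1 to ADH3 pair passed under all alternatives (permutation, adjusted p 0.0391 at most).

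ADH1 and ADH2, the fermentative gene and its glucose-repressed relative, could not be separated. The difference was 0.22 ± 0.42 (SD, n = 13), ran from -0.64 on array 240 to 1.03 on array 031 and was above 0 on 10 of 13 arrays (permutation, adjusted p = 0.0828). In wild type the difference was within -0.03 to 0.12 on all 4 arrays. ADH2 there gave 0.65, 0.32, 0.94 and 0.85 on arrays 039, 086, 136 and 230, beside 0.70, 0.29, 0.94 and 0.97 for ADH1. It averaged 0.10 on arrays labelled rrm3 delete and 0.71 in the Rrm3 IP, over 3 arrays. Without array 240 the pooled difference was 0.29 and passed (permutation, adjusted p = 0.0132). On arrays 137 (difference -0.25) and 240 the ADH2 spot was faint, its input signal lying at the 6.65th and 8.13th percentile of spots. On array 137 that signal was 26, against a local background of 63. ADH2 was above 0 on 13 of 14 arrays, with array 031 at -0.96. PDC1 with PDC5, and ADH1 with ADH2, are gene pairs of similar sequence; whether the PCR products of a pair also capture DNA of the other gene was not tested.

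**Figure D2:**
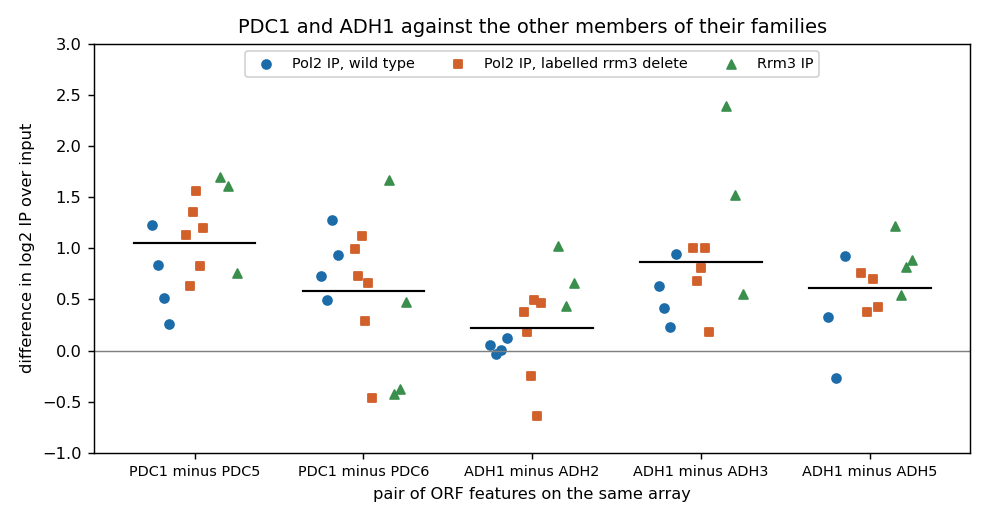
Difference in log2 IP over input between 2 ORF features of the same array (vertical axis) for the 5 pairs, by group, with the mean over all arrays as a bar. PDC1 minus PDC5 and ADH1 minus ADH3 lie above 0 on every array, whereas the 4 wild-type arrays of ADH1 minus ADH2 lie between -0.03 and 0.12.

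ADH3 and ADH5 lay around the array median. ADH3 was 0.08, -0.13, 0.72 and 0.03 on wild-type arrays 039, 086, 136 and 230 and between -0.17 and 0.23 on arrays labelled rrm3 delete. In the Rrm3 IP it was -0.17, -0.07 and 0.61 on arrays 088, 184 and 185, and -2.32 on array 031. ADH3 was above 0 on 7 of 13 arrays, and it had the largest dye term in size of the 7 genes, -0.69 on the log2 scale. ADH5 was above 0 on 8 of 12 arrays and ranged from -0.66 on array 041 to 0.55 on array 086.

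No member passed as different between groups. Against a background of 0.557% of features called for arrays labelled rrm3 delete minus wild type, 0 of 7 passed (limma; 0 of 7 also had an unadjusted p under 0.05). PDC1 differed by -0.03 (95% interval -0.52 to 0.46), ADH1 by 0.04 (-0.47 to 0.56) and ADH2 by -0.03 (-0.67 to 0.62), so changes smaller than these bounds could not be seen. PDC5 came nearest, at -0.44 (-0.89 to 0.01; unadjusted p = 0.0568, adjusted p = 0.950). These sizes rest on the direction of array 136: with it as labelled they were 0.87 for PDC1, 0.45 for ADH1, 0.35 for ADH2 and 0.07 for PDC5, and 0 of 7 passed there too. For the Rrm3 IP minus the wild-type Pol2 IP, which uses the same 4 wild-type arrays, 0 of 7 passed, against 0.00808% of features, and 0 of 7 had an unadjusted p under 0.05. The differences were 0.20 for PDC1 (-0.34 to 0.73), 0.10 for ADH1 (-0.47 to 0.68), 0.69 for PDC6 (-0.14 to 1.53) and -0.34 for PDC5 (-0.89 to 0.20). With array 136 as labelled they were 1.10, 0.53, 0.91 and 0.17, and 0 of 7 passed.

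The features on either side of each gene were measured as well. An intergenic name was taken to hold the ORF on its lower-coordinate side, and by strand the 5′ and 3′ sides follow. Upstream of PDC1, region IYLR044C was at 0.07 ± 0.22 in wild type, -0.26 ± 0.20 on arrays labelled rrm3 delete and 0.47 ± 0.20 in the Rrm3 IP, with none passing. Downstream, IYLR043C, between PDC1 and the thioredoxin gene TRX1, was at 0.83 ± 0.34, 0.82 ± 0.31 and 0.71 ± 0.31, also with none passing. The downstream region was above 0 on 13 of 14 arrays, between 0.43 and 1.66, the exception being array 031 at -1.43. Without array 031 it passed in all 3 groups, at 0.83, 0.78 and 1.24 (adjusted p = 0.00304, 0.000541 and 7.93e-05). With array 136 as labelled its wild-type value was 0.42. PDC1 exceeded the upstream region by 1.24 ± 0.48 (SD) and the downstream region by 0.60 ± 0.78, each on 13 of 13 arrays. The second difference was 3.12 on array 031 and 0.39 ± 0.20 over the 12 other arrays, an alternative chosen after seeing the data. TRX1 at 0.41, 0.30 and 0.21 and STU2, the microtubule-binding protein gene on the other side, at 0.04, -0.07 and 0.26 did not pass.

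PDC5 had a different surrounding. Its downstream region IYLR134W was called lower in all 3 groups, at -0.91 ± 0.18 in wild type (adjusted p = 0.00871), -0.95 ± 0.15 on arrays labelled rrm3 delete (0.000291) and -0.67 ± 0.16 in the Rrm3 IP (0.00882). It was below 0 on 15 of 15 arrays, from -1.28 to -0.01, and PDC5 exceeded it on 13 of 13 arrays. With array 136 as labelled the wild-type value of IYLR134W was -0.45 and did not pass (adjusted p = 0.671), and that of the Rrm3 IP narrowly missed (0.0515). The upstream region IYLR133W was at -0.04, -0.08 and -0.28 without passing. Beyond it CKI1, the choline kinase gene, was called lower in the Rrm3 IP (-0.49, adjusted p = 0.0311), a call lost without array 031 or 088 (0.0724 and 0.0676).

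On both sides of ADH1 the regions were above the array median without passing. Upstream IYOL086C was at 0.40, 0.26 and 0.31 in wild type, on arrays labelled rrm3 delete and in the Rrm3 IP, and downstream IYOL087C at 0.54, 0.69 and 0.29. The last value rests on array 031 at -1.44, against 0.22, 1.48 and 0.89 on arrays 041, 184 and 185. Without array 031 IYOL087C passed in the Rrm3 IP (0.77, adjusted p = 0.0144) and on arrays labelled rrm3 delete (0.66, 0.00682). ADH1 exceeded the first on 12 of 13 arrays and the second on 9 of 12. The upstream region of ADH2, IYMR303C, was not tested, since it was measured on 3 wild-type arrays, 4 of the Rrm3 IP and on 0 of those labelled rrm3 delete. Its values there ran from -1.36 to 1.17. On the downstream side of ADH2, YME2, a gene of the mitochondrial inner membrane, was called lower in the Rrm3 IP (-0.46, adjusted p = 0.0177), though not without array 184 (0.0597).

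**Figure D3:**
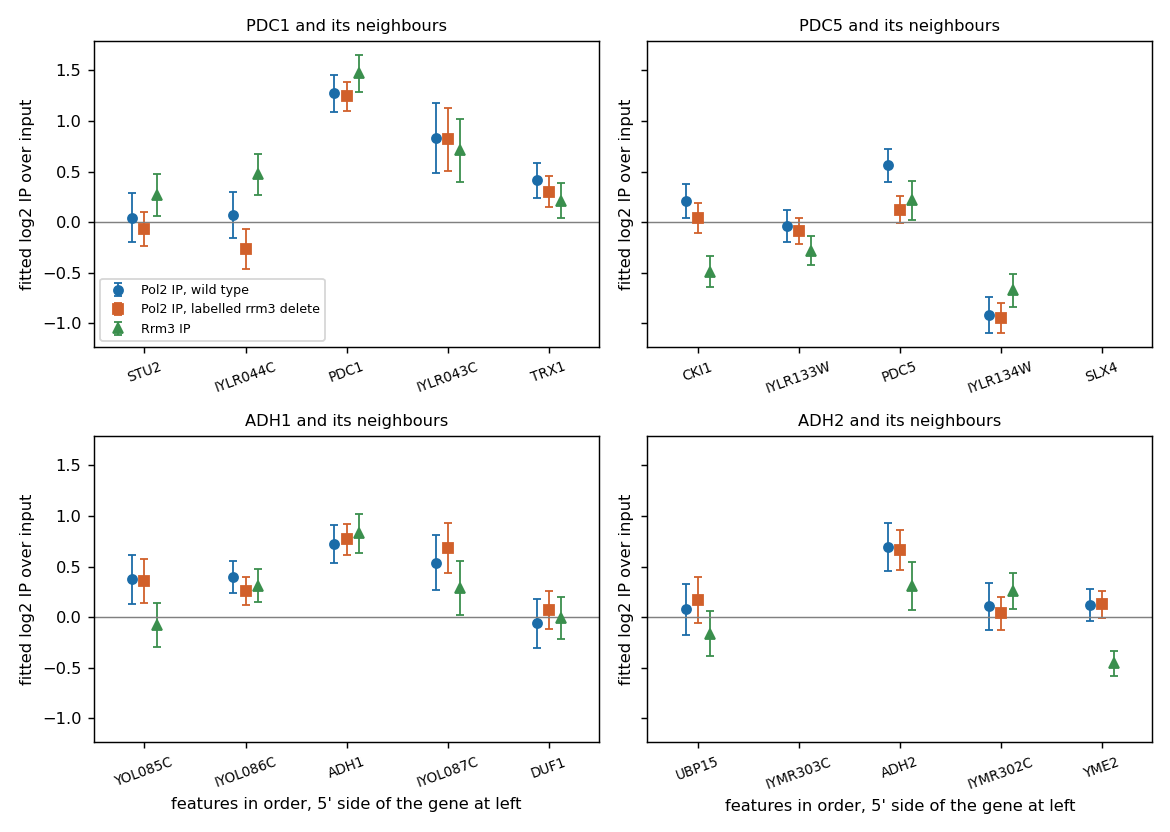
Fitted log2 IP over input (vertical axis) ± SE of PDC1, PDC5, ADH1 and ADH2 and of the neighbouring ORF and intergenic features, in order along the chromosome (horizontal axis, not to scale) with the 5′ side of the gene at left. IYLR043C downstream of PDC1 lies at 0.71 to 0.83, IYLR134W downstream of PDC5 at -0.95 to -0.67, and IYMR303C and SLX4 had too few values for the fit.

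Among the other genes, the 2 regions upstream of PDC6, IYGR087C-0 and IYGR087C-1, were called higher on arrays labelled rrm3 delete, at 0.94 ± 0.22 and 0.88 ± 0.19 (adjusted p = 0.00769 and 0.00448). In wild type they were at 0.10 and 0.43 and did not pass, and the difference did not pass for either (0.83, adjusted p = 0.657, and 0.46, adjusted p = 0.9996). Upstream of ADH3, IYMR082C-0 was called higher on arrays labelled rrm3 delete (0.51) and lower in the Rrm3 IP (-0.55). The first call passed in 19 of 28 alternatives and was lost without array 040, 137, 182, 239 or 240 (0.45 to 0.52, adjusted p = 0.0695 to 0.0977). The second passed in 23 of 28 and was lost without array 031, 041 or 088 (adjusted p = 0.0602, 0.0704 and 0.0503) and with loess (0.128). The other region upstream of ADH3, IYMR082C-1, was at 0.35 and 0.02 in these groups and did not pass (adjusted p = 0.242 and 0.955). Downstream of ADH5, IYBR145W was called lower on arrays labelled rrm3 delete (-0.50) and in the Rrm3 IP (-0.39, adjusted p = 0.0452). The second call passed in 8 of 27 alternatives and was lost without any 1 of arrays 041, 088, 184 and 185 (adjusted p = 0.100, 0.0635, 0.0789 and 0.127). The first passed in 26 of 27, the exception being without array 239 (0.0543). Upstream of ADH5, region IYBR144C (-0.57, adjusted p = 0.0340) and the ORF YBR144C (-0.64, 0.0228) were called lower in the Rrm3 IP, in 22 of 26 and 20 of 25 alternatives. The first was lost without array 031, 041 or 184 (adjusted p = 0.0766, 0.0546 and 0.136) and the second without 184 or 185 (0.0676 and 0.118). Next to PDC6, CTT1, the cytosolic catalase gene, was called higher there (0.45, adjusted p = 0.0353), in 15 of 24 alternatives and not without array 031, 088 or 184 (0.0807, 0.0777 and 0.0861).

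Related genes were grouped in lists by known function and are described by counts and medians. Of 16 glycolytic genes tested (17 listed, CDC19 having too few values), which carry glucose to pyruvate, 1 was called higher in wild type, 10 on arrays labelled rrm3 delete and 11 in the Rrm3 IP, where 0.937%, 9.38% and 11.0% of all features were. Their medians were 0.75, 0.78 and 0.85, where those of all features were 0.01, 0.00 and -0.02. TDH3 (glyceraldehyde-3-phosphate dehydrogenase) was at 1.28 ± 0.45, 1.22 ± 0.41 and 0.95 ± 0.41 without passing, and ENO2 (enolase) at 1.08 ± 0.30, 1.19 ± 0.24 and 1.15 ± 0.27, passing in the last 2 groups. GLK1 (glucokinase) at 0.89 ± 0.17 was the gene called in wild type. It was also called on arrays labelled rrm3 delete (0.80) and in the Rrm3 IP (0.43). HXK1, a hexokinase gene, was at 0.04, 0.34 and -0.20 without passing. The TDH and ENO genes are families of similar sequence, and cross-capture between their spots was not tested. The counts moved with the setting, from 0 to 9, 0 to 11 and 1 to 14 over the 28 alternatives, some of which tested fewer of the genes. With array 136 as labelled they were 1, 6 and 11, where 5, 1032 and 1160 of 12380 features were called higher. Without array 031 they were 9, 11 and 14, where 439, 1802 and 1551 of 12225 features were. The median stayed above 0 under all 28 alternatives in each group (0.46 at the lowest).

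Of 15 other genes of alcohol and aldehyde metabolism, 1 was called higher in wild type, 3 on arrays labelled rrm3 delete and 3 in the Rrm3 IP, with 1 lower there. Over all features the shares called higher were 0.937%, 9.38% and 11.0%, and 12.7% were called lower in the Rrm3 IP. The medians of the list were 0.23, 0.13 and 0.17. ALD5, a mitochondrial aldehyde dehydrogenase gene, was called higher in all 3 groups, at 0.65 ± 0.15, 0.60 ± 0.12 and 1.05 ± 0.13. Its wild-type call was lost with array 136 as labelled (0.22, adjusted p = 0.857) and without that array (0.56, 0.115). ALD6, the main cytosolic aldehyde dehydrogenase gene, was at 0.84 ± 0.19 in the Rrm3 IP and passed there. The stress-induced ALD2 was the gene called lower, at -0.90 ± 0.23. ACS1, an acetyl-CoA synthetase gene repressed by glucose, was called on arrays labelled rrm3 delete (0.61), and ACS2, its relative used on glucose, in the Rrm3 IP (0.54).

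Of 12 other glucose-repressed genes, 0 were called in wild type and on arrays labelled rrm3 delete (limma; 3 and 1 had an unadjusted p under 0.05), and 2 were called lower in the Rrm3 IP, MLS1 (malate synthase, -0.60) and JEN1 (lactate transporter, -0.51). Over all features 0.937%, 9.38% and 11.0% were called higher in the 3 groups, and 2.37%, 6.91% and 12.7% lower. The medians of the glucose-repressed genes were 0.08, 0.08 and -0.17, and the wild-type median changed sign among the alternatives (-0.06 to 0.18). ADH2 at 0.69 and 0.66 in the Pol2 groups stood above 11 of these 12 genes in wild type and above all 12 on arrays labelled rrm3 delete, the exception being CTA1, the peroxisomal catalase gene, at 1.14 ± 0.36. Of 9 regulators, REG1, which encodes a subunit of the phosphatase that maintains glucose repression, was called higher on arrays labelled rrm3 delete (0.74) and in the Rrm3 IP (0.50), and PDC2, an activator of PDC1 and PDC5, in the Rrm3 IP (0.42). In wild type 0 of the 9 were called (limma; 0 with an unadjusted p under 0.05). The shares of all features given above, 0.937%, 9.38% and 11.0% called higher, apply to the regulators too. In the differences between groups 0 listed genes were called (limma). An unadjusted p under 0.05 was found for 1 glucose-repressed gene on arrays labelled rrm3 delete minus wild type. In the Rrm3 IP minus wild type it was found for 3 glucose-repressed, 2 glycolytic and 1 of the alcohol and aldehyde genes.

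**Figure D4:**
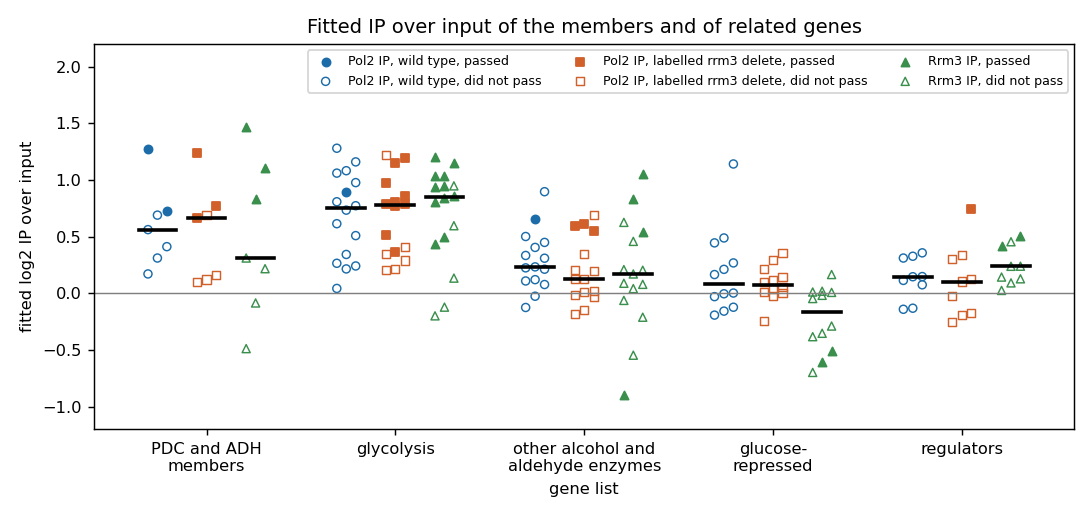
Fitted log2 IP over input (vertical axis) of the 7 genes and of 4 lists of related genes, in the 3 groups; filled symbols passed the adjusted threshold of 0.05 and bars are medians. The glycolytic medians lie at 0.75 to 0.85 and those of the glucose-repressed genes at -0.17 to 0.08.

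Likeness across the arrays was read from Pearson's r over arrays that measured both features, as a description. The points share arrays, dyes and groups. The highest r were picked among 5537 ORFs for PDC1 and among 3952 to 5979 for the other genes. Whether they exceed what a search of that size gives by chance was not tested. The ORFs most like PDC1 were MRPL6, a mitochondrial ribosomal protein gene (0.83), RPL8B, a cytosolic one (0.82), and NHP10, of a chromatin remodeller (0.81), each over 13 arrays. Those most like ADH1 were NUP145, a nuclear pore gene (0.89, 13 arrays), EXP1 (0.87, 12) and TIF6, of ribosome assembly (0.87, 13). For ADH2 they were LAM6, ARF2 and ASK1 (0.95 to 0.97, and 0.74 to 0.87 without array 031), for PDC5 NFS1, ICL2 and FLR1 (0.85 to 0.88), for PDC6 MRP13, FAU1 and YOR263C (0.90 each), for ADH3 VID22, LEU9 and YPR050C (0.97 each, and 0.58 to 0.81 without array 031) and for ADH5 ATP25, MRP51 and YAR061W (0.91 to 0.93). Between members, PDC1 and PDC5 had an r of 0.25 and ADH1 and ADH2 0.61, each over 13 arrays. ADH2 and ADH3 had 0.86 over 13 arrays, and both were lowest on array 031. Without array 031, an alternative chosen after seeing the data, the r of ADH2 with ADH3 was 0.24 and that of ADH1 with ADH2 0.21, over 12 arrays each.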

How the data were processed

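The arrays were deposited as scanner output, whose intensity values are the median signal and median local background of each spot in both channels, per the file headers. The authors' deposited table of log2 values gave the sign of each ratio. The scanner, the image software and the genome build were not given in the sources used here. Background-subtracted medians of unflagged spots with signals above 0 were turned into log2 IP over input, averaged by name and centred on each array's median. The 7 members and the lists were chosen with earlier results of these data known, and members, relatives, neighbours and the 3 most correlated ORFs are named.

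A linear model with group means and a term for dye orientation was fitted to 15 arrays with limma 3.58.1 in R 4.3.3 (empirical Bayes, prior degrees of freedom 6.12). It tested 12380 features measured on at least 3 arrays of each group, two-sided, with a Benjamini-Hochberg threshold of 0.05. The fit and the exact permutation test for pairs were tested on simulated data. The series text calls dye swaps technical replicates, so arrays may share an extract and p-values measure only the spread between arrays. Their number limits the precision. Alternatives covered background, flags, failed or dim spots, loess, the deposited table, dyes, array 136, the variance trend and left-out arrays. Symbols and gene order came from the R64 RefSeq table, which matched 5677 of 6203 ORF names. Intergenic names in numbered parts had the larger gap on the higher-coordinate side for 89.0% of left-arm and 89.3% of right-arm names.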

Additional observations from a re-analysis of the deposited data

Results flagged for a closer look

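Of 19 sets of 4 to 6 values examined, 1 held a sample far from the others: ADH1 on array 240, labelled rrm3 delete, had a log2 ratio of 0.40, where the other 5 arrays of the group lay between 0.78 and 0.91. Chance flags about 1 in 20 such sets. Without array 240 the fitted ADH1 value of the group was 0.87.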

How the results depend on the processing

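No value changed direction after being called. In wild type, where 2 genes were called, the count was 4 with no background subtraction and 1 with no flag filter, with no dye term, without arrays 136 and 182 or without arrays 031 and 041. It was 0 with array 136 as labelled. The number of all features called higher in wild type moved too, from 116 of 12380 in the main fit. It was 170 of 12399 with no background subtraction and 5 of 12380 with array 136 as labelled. It was 112 of 13029 with no flag filter, 75 of 12380 with no dye term and 58 of 12075 without arrays 136 and 182. Without arrays 031 and 041 it was 413 of 10093. With the arrays carrying the IP in Cy5 alone the counts were 0 in all 3 groups, but only ADH1 and PDC6 had enough arrays to be tested there. Of the 8497 features tested there, 0, 265 and 150 were called higher. Without arrays 031 and 041, 4 of the 7 genes could be tested. PDC1 and ADH1 were not among them, and the 1 gene called in wild type there was ADH2, a call gained. Leaving out 1 array at a time gave 1 to 3 genes in wild type and 2 to 4 both on arrays labelled rrm3 delete and in the Rrm3 IP. Over all features, 439, 1802 and 1551 of 12225 were called higher in these groups without array 031. In wild type it was 30 of 6452 without array 039. On arrays labelled rrm3 delete it was 748 of 12358 without array 040, and in the Rrm3 IP 587 of 11996 without array 184. ADH1 minus ADH2 passed with normexp background correction (0.30, adjusted p = 0.0227) and with no flag filter (0.23, 0.0485), and ranged from 0.16 to 0.29 on leaving out 1 array. With the IP in Cy5 alone, ADH1 minus ADH5 (0.53, adjusted p = 0.0521) and PDC1 minus PDC6 (0.70, 0.0586) did not pass by the permutation test. PDC1 minus PDC6 was 0.40 (0.0830) with array 136 as labelled. The cause of these changes was not tested. PDC6 gave no value with failed PCR products left out. Of the values of single genes under an alternative, 866 kept their side of the threshold, 29 lost a call and 10 gained one. No paired fit was made, since the labels give the groups no shared replicate number.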

Other observations

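On array 231, a dye swap whose labels contradict each other on the deletion, the log2 ratios were 0.44 for PDC1, 0.44 for ADH1, 0.66 for ADH2, 0.03 for PDC5, 0.44 for PDC6 (on a spot recorded as a failed PCR product), 0.36 for ADH3 and 0.32 for ADH5.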
